A study of Rattus norvegicus with 24 samples.

Results

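Gene expression in the rostral posterior hypothalamic (rPH) region of rats exposed to 7 loud noises (RS7) was compared with that of rats exposed to 3 loud noises (RS3). The comparison rests on 10 of the 24 rats sequenced, namely RS7 rats 2, 3, 4, 5 and 6 and RS3 rats 7, 9, 10, 11 and 12, which were taken by their treatment label after leaving out the 1 rat per group that the study did not keep (RS7 rat 1 and RS3 rat 8). All were adult male Sprague-Dawley rats from Envigo that were placed daily in sound-attenuating chambers for 7 days. The RS7 rats heard white noise on each of these days, the RS3 rats on the last 3 of them only, and brains were taken 24 h after the final noise. Control rats without noise (C) and rats with 1 noise exposure (AS), 5 kept per group, were fitted together with them, so that 20 rats shared one estimate of the spread. The tissue was a block cut around the mammillothalamic tracts, and each library is the bulk mRNA of the block from 1 rat.

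The posterior hypothalamus takes part in autonomic and endocrine responses to stressors, and it borders the thalamus, the zona incerta and the walls of the ventricle. Responses to a stressor that is met again and again often become smaller, which is called habituation. The comparison asks whether transcript levels a day after the last noise differed between rats with a long and with a short history of the same noise.

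In the RS3 group, the counts on genes added up to 9209841 (rat 7), 16947298 (rat 9), 15962535 (rat 10), 11409357 (rat 11) and 12188012 (rat 12). In the RS7 group, the totals were 14189794 (rat 2), 12479489 (rat 3), 16538531 (rat 4), 16208973 (rat 5) and 12806794 (rat 6). The totals of the groups overlapped (two-sided exact permutation p = 0.444). A gene at 1 CPM (counts of a gene scaled to the library total and TMM factor) therefore rests on few counts in each rat. The 10 most abundant genes took 18.8% of the counts in RS7 rat 4, 13.1% to 14% in the other RS7 rats and 12.4% to 14.9% in the RS3 rats (two-sided exact permutation p = 0.333). Over all genes tested, the root mean square difference in log2 CPM averaged 0.338 between RS3 rats, 0.309 between RS7 rats and 0.331 between a rat of one group and a rat of the other. Pairs from different groups were thus about as far apart as pairs from the same group. RS3 rat 7 lay farthest from its own group (0.387), and RS7 rat 4 was the highest of the 10 rats in 2968 genes and the lowest in 2892.

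The genes with higher values in every RS7 rat than in any RS3 rat included the mu opioid receptor gene Oprm1 (14.7 ± 4.31 CPM in the RS3 and 23.5 ± 2.49 CPM in the RS7 group, mean ± SD, n = 5), the histone deacetylase gene Hdac9, the axon guidance gene Sema3d and the presynaptic scaffold gene Pclo. Those with lower values in every RS7 rat included Lbhd2, the natriuretic peptide gene Nppa, the growth factor gene Btc and the small heat shock protein gene Hspb8. None of these differences passed the test across all genes. Of 16202 genes tested by the quasi-likelihood F test of edgeR, 0 were called at a Benjamini-Hochberg adjusted p of 0.05 or less, and 10 genes shared the lowest adjusted p, 0.406. An unadjusted p under 0.05 was found for 1218 genes (7.52% of those tested), of which 598 (3.69%) were higher and 620 (3.83%) lower in the RS7 group. DESeq2 (Wald test) called 0 genes and had 1286 with an unadjusted p under 0.05, and limma-voom with quality weights for the rats called 0 and had 1432. With all 24 rats, edgeR called 0 genes and 655 had an unadjusted p under 0.05. CPM values of the RS7 and RS3 rats did not overlap in 250 genes (1.54%), 141 of them higher (0.870%) and 109 lower (0.673%) in the RS7 group.

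Most differences were small beside the unadjusted 95% interval of a single gene. The 95% confidence interval of the log2 fold change (RS7 minus RS3) had a median half-width of 0.19, and it lay within a 2-fold change either way for 15642 genes (96.5%) and within a 1.5-fold change for 13704 genes (84.6%). Among the 10469 genes with a mean above 10 CPM these numbers were 10438 (99.7%) and 10284 (98.2%). The median absolute log2 fold change was 0.0763 over all genes tested and 0.223 over the 1218 genes with an unadjusted p under 0.05, and 84.3% of the latter were under 0.5. Their values spanned -2.42 to 1.37. With the same fit, 0 genes were called in AS minus C, RS3 minus C and RS3 minus AS, 24 genes in RS7 minus C (0.148%) and 270 in RS7 minus AS (1.67%). At an unadjusted p under 0.05, the shares were 10.0%, 16.3% and 4.61% in the first 3 of these comparisons, and 17.9% and 16.2% in the latter, all of which share rats with each other or with RS7 minus RS3.

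**Figure D1:**
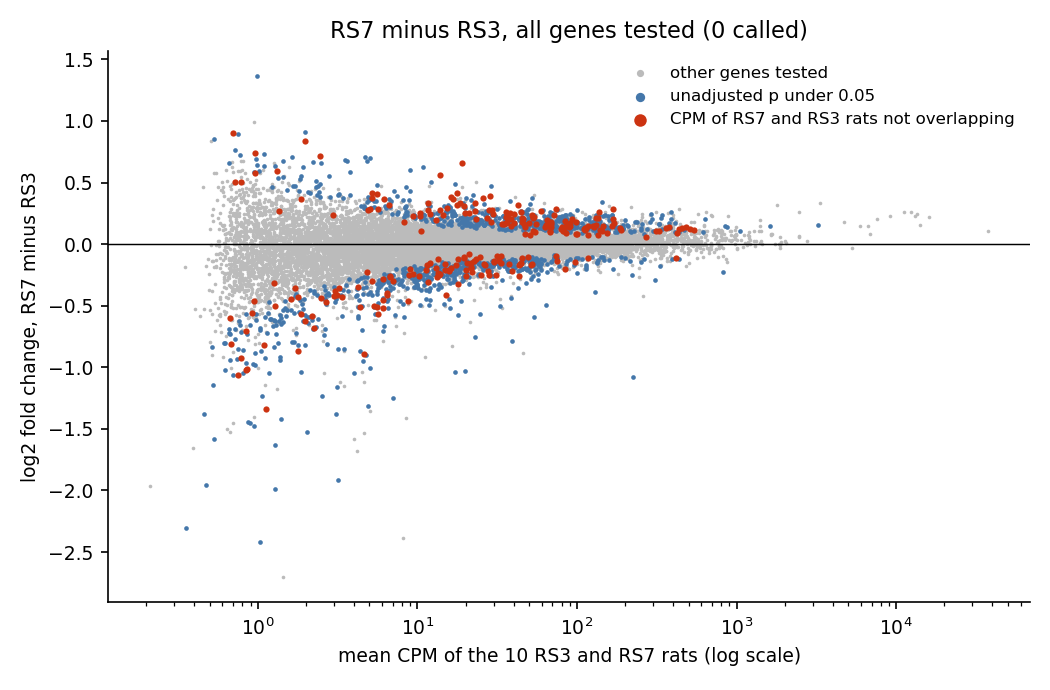
Log2 fold change (RS7 minus RS3, vertical axis) of the 16202 genes tested against their mean CPM over the 10 rats (horizontal, log scale). Blue points have an unadjusted edgeR p under 0.05, red points are the 250 genes whose RS7 and RS3 values do not overlap, and the values draw closer to 0 as the mean CPM grows.

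Genes are named below by the symbols of the study's own list of differentially expressed genes, which gave a symbol for 758 of the genes tested. A gene said below to have no identifier lacked a symbol in that list, and it may still be among the genes tested. That list was drawn up from comparisons among these same rats, so counts among these genes are not independent evidence and their direction was partly set by the choice. Of the 758, 297 had an unadjusted p under 0.05 (199 higher, 98 lower), which is background for the lists below and not a result. Among all 758, 514 had a higher and 244 a lower mean in the RS7 group, with a median log2 fold change of 0.10, beside -0.00 over all genes tested. The members of every gene list below come from these 758, so a list median near 0.10 does not set a list apart from them. Counts of list members with an unadjusted p under 0.05 are likewise to be read beside 297 of 758. Counts of members with a higher mean are to be read beside 514 of 758. No list count below is given as a result about that list. Fewer cells of one type and less RNA per cell cannot be told apart in bulk tissue, for any of the genes below.

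Oprm1 (ENSRNOG00000018191) encodes the receptor for beta-endorphin, enkephalins and morphine. It had 12.3, 18.8, 16.3, 8.33 and 17.6 CPM in RS3 rats 7, 9, 10, 11 and 12, and 23.1, 26.6, 25, 22.8 and 20 CPM in RS7 rats 2, 3, 4, 5 and 6. The groups did not overlap, and the lowest value was that of RS3 rat 11. The log2 fold change of 0.66 had a standard error of 0.211 and an edgeR adjusted p of 0.619. The C and AS groups had 12.1 ± 3.57 and 9.64 ± 2.91 CPM, and the log2 fold change of RS7 minus AS was 1.28 (edgeR adjusted p = 0.00949), against 0.62 for RS3 minus AS. Hdac9 (ENSRNOG00000004158), a class II histone deacetylase, had 25.5, 27.3, 25.1, 19.9 and 24.6 CPM in the RS3 rats and 27.7, 30.2, 31.7, 38.2 and 33 CPM in the RS7 rats, in the same order of rats. The gap between the groups was narrow, from 27.3 to 27.7 CPM. This gave a log2 fold change of 0.39, with a 95% confidence interval from 0.16 to 0.63 (edgeR adjusted p = 0.619). In this gene the C and AS groups (24.1 ± 2.95 and 22.7 ± 4.37 CPM) were close to the RS3 group.

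Sema3d (ENSRNOG00000007202), a secreted semaphorin, had a log2 fold change of 0.38 (95% confidence interval 0.12 to 0.64), with 16.1 to 25.5 CPM in the RS3 and 26.4 to 33.8 CPM in the RS7 rats. Dok6 (0.34), a docking protein of receptor tyrosine kinases, Taok1 (0.32), a protein kinase, Cdh6 (0.28), a cadherin, and Cachd1 (0.27), which modulates calcium channels, were also higher in every RS7 rat. Frrs1l, which assists the assembly of AMPA receptors, had 22.1 to 27.5 CPM in the RS3 and 28.7 to 35.9 CPM in the RS7 rats (0.28). These 6 genes had edgeR adjusted p values between 0.421 and 0.622 and, like Oprm1 and Hdac9, C and AS means at or below the RS3 mean.

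In 3 further genes the mean of the RS7 group was nearer to that of the C group than the RS3 mean was. Plcd4 (ENSRNOG00000016361), a phospholipase C that releases inositol trisphosphate and diacylglycerol, had 69.8, 66, 74.6, 56.5 and 67.1 CPM in RS3 rats 7, 9, 10, 11 and 12, and 76.5, 81.4, 83.6, 84.6 and 80.4 CPM in RS7 rats 2 to 6. The highest RS3 value, 74.6 CPM, was just under the lowest RS7 value. Plcd4 had a log2 fold change of 0.28 (95% confidence interval 0.15 to 0.42, edgeR adjusted p = 0.406), while the C group had 78 ± 7.82 CPM and the AS group 64.7 ± 3.37 CPM. Iws1, a partner of the transcript elongation machinery, had 20.9 ± 1.08 CPM in the RS3, 25.1 ± 1.46 CPM in the RS7 and 23.5 ± 1.1 CPM in the C group (log2 fold change 0.27, edgeR adjusted p = 0.406). Asxl2, a chromatin regulator, had 17.4 ± 0.794, 21.6 ± 2.71 and 21.1 ± 3.87 CPM in these groups (0.31, edgeR adjusted p = 0.619). For these 3 genes the log2 fold change of RS3 minus C lay between -0.26 (Asxl2) and -0.17 (Iws1), and none was called in a comparison with the C group. In Pclo, which organizes the presynaptic active zone, the C group (159.8 ± 29.5 CPM) was instead nearer to the RS3 group (151.1 ± 11.4 CPM) than to the RS7 group (184.1 ± 12.9 CPM). Its RS7 minus RS3 value was 0.28 (edgeR adjusted p = 0.619). In C rats 21 and 22 the 10 most abundant genes took 20.1% and 20.3% of the counts. The other C rats kept had 13.6% to 14.5%, and the part of this in the C means was not tested.

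The largest decrease with a symbol among genes without overlap was in Lbhd2 (ENSRNOG00000043137), with 2.7, 1.96, 2.68, 1.78 and 2.42 CPM in RS3 rats 7, 9, 10, 11 and 12 and 0.86 to 1.53 CPM in the RS7 rats. RS3 rats 9 and 11 were nearest to the RS7 rats. The log2 fold change of -0.86 had a 95% confidence interval from -1.26 to -0.47 (edgeR adjusted p = 0.406). At these levels each value rests on few counts. Nppa (ENSRNOG00000008176), the precursor of atrial natriuretic peptide, had 2.38, 2.26, 3.05, 3.23 and 2.98 CPM in the RS3 rats and 1.74, 1.85, 1.9, 1.32 and 1.88 CPM in the RS7 rats. The RS7 values lay below all RS3 values, while the C (2.78 ± 0.759 CPM) and AS (2.99 ± 1.2 CPM) groups had means near that of the RS3 group. Nppa thus had a log2 fold change of -0.68 (95% confidence interval -1.16 to -0.21, edgeR adjusted p = 0.619). Btc, the epidermal growth factor receptor ligand betacellulin, had 2.08 to 2.72 CPM in the RS3 and 1.11 to 1.93 CPM in the RS7 rats (log2 fold change -0.62, edgeR adjusted p = 0.6). It was the AS group that had the highest mean of Btc, 2.77 ± 0.174 CPM, and the log2 fold change of RS7 minus AS was -0.85 (edgeR adjusted p = 0.00839).

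Hspb8 (ENSRNOG00000022392), a small heat shock protein that acts in the removal of misfolded proteins, had 15.2, 17.2, 16, 19.4 and 18 CPM in the RS3 rats and 14, 14.3, 12.5, 12.3 and 11.3 CPM in the RS7 rats. The interval between 14.3 and 15.2 CPM separated the groups, and RS3 rat 11 was highest. Hspb8 had a log2 fold change of -0.42 (95% confidence interval -0.61 to -0.22, edgeR adjusted p = 0.406), and the C and AS groups had 16.2 ± 1.84 and 18 ± 2.39 CPM. Greb1, a cofactor of the estrogen receptor, had 6.36 to 7.38 CPM in the RS3 and 4.16 to 6.27 CPM in the RS7 rats (log2 fold change -0.45, edgeR adjusted p = 0.619), with the highest group mean in the C rats (8.03 ± 0.385 CPM) and an RS7 minus C value of -0.66 (edgeR adjusted p = 0.0228). Wscd2 (-0.57), Cfap300 (-0.50), a component of motile cilia, Il22ra2 (-0.41), a soluble receptor that binds interleukin 22, and the zinc finger gene Zfp383 (-0.26) were lower in every RS7 rat too. So were Snx11 (-0.26), a sorting nexin, Wbp4 (-0.22), a splicing factor, and Trnau1ap (-0.19), which acts in selenoprotein synthesis, with edgeR adjusted p values between 0.619 and 0.631 for these 7 genes. For Snx11 and Wbp4 the RS3 group stood above the C group (18.2 ± 1.14 and 33.2 ± 4.18 CPM), and the RS7 group (18.3 ± 1.87 and 36.2 ± 3.01 CPM) lay nearer to the C group.

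Without regard to overlap, the lowest p values among genes higher in the RS7 group were those of ENSRNOG00000033940 (log2 fold change 0.32, 14.8 to 17.7 CPM in the RS3 and 17.8 to 21.2 CPM in the RS7 rats) and Ago3, an argonaute protein of small RNA silencing (0.70, from 3.78 ± 0.703 to 6.25 ± 1.35 CPM). In Ago3 the groups overlapped, since RS7 rat 2 (4.74 CPM) lay below RS3 rat 9 (4.75 CPM). ENSRNOG00000024922 had 1.19 to 1.69 CPM in the RS3 and 2.11 to 3.14 CPM in the RS7 rats (0.83). On the lower side, the lowest p values besides Lbhd2 and Hspb8 belonged to ENSRNOG00000025130 (-0.46, from 10.1 ± 0.704 to 7.34 ± 0.834 CPM) and ENSRNOG00000005465 (-1.95, from 0.758 ± 0.385 to 0.183 ± 0.0964 CPM). The groups did not overlap in ENSRNOG00000025130 and did in ENSRNOG00000005465, whose values are those of few counts. These 5 genes had an edgeR adjusted p of 0.406 each.

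**Figure D2:**
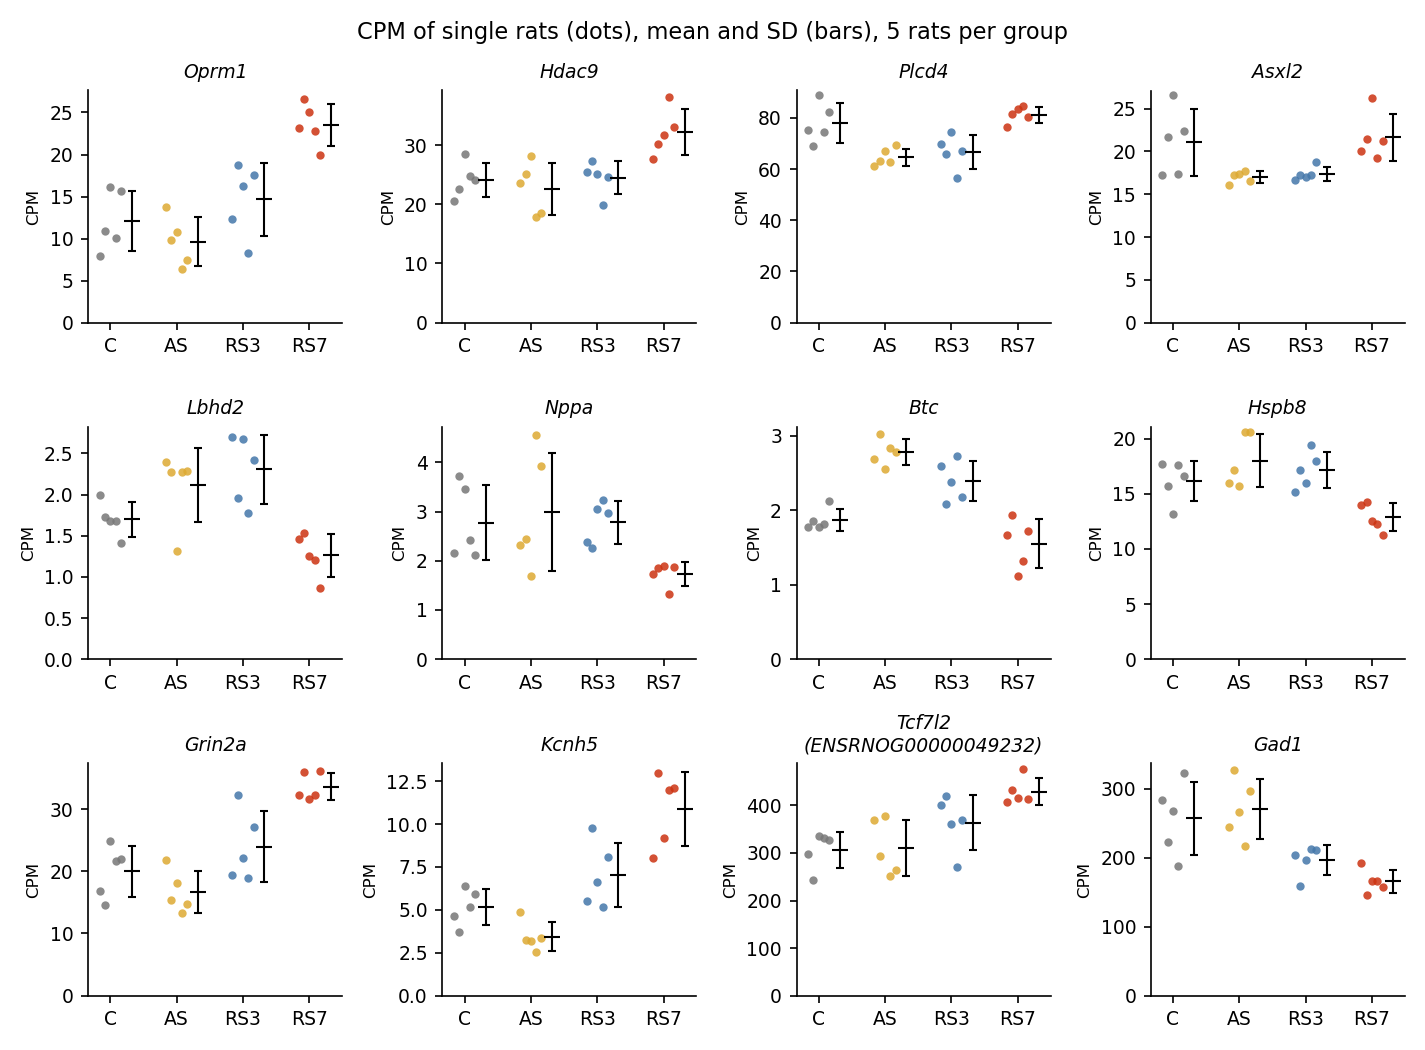
CPM of 12 genes (vertical axes, from 0) in single rats of the C, AS, RS3 and RS7 groups, with the mean and SD beside the 5 dots of each group. Values of RS7 and RS3 rats do not overlap in the genes of the upper 2 rows, from Oprm1 to Hspb8, and overlap in Grin2a, Kcnh5, Tcf7l2 and Gad1.

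Markers of the dorsal thalamus, which adjoins the dissected block, had higher means in the RS7 group. Of the 12 markers, 8 had an identifier (9 identifiers, as Tcf7l2 has 2), and Prkcd, Calb2, Gbx2 and Zic1 had none. All 9 had a positive log2 fold change, with a median of 0.24 beside 0.10 over the 758 genes with a symbol, and 3 had an unadjusted p under 0.05. Their summed level was 1692.1, 1826.3, 1623.1, 1254.0 and 1657.9 CPM in RS3 rats 7, 9, 10, 11 and 12, and 1721.2, 1824.9, 1692.3, 2107.9 and 1769.2 CPM in RS7 rats 2 to 6. RS3 rat 11 was the lowest and RS7 rat 5 the highest, and the remaining 8 rats overlapped. The same rats were lowest and highest in the summed level of 12 of the 25 gene lists. Besides the thalamic markers these were the lists of GABA receptors, glutamate receptors, sodium and calcium channels, calcium and kinase signaling, the Wnt pathway, synaptic vesicles, axon guidance, cytoskeleton, neuronal transcription regulators, heat shock and glycolysis. The lists share rats and some genes. Of the thalamic markers, Slc17a6 is also in the glutamate list, and Tcf7l2 and Lef1 are in the Wnt list. Ntng1 and Cdh8 are also in the axon guidance list, and Rora and Rorb in that of neuronal transcription regulators. Slc17a6, the vesicular glutamate transporter of thalamic and hypothalamic neurons, had the most counts of the thalamic list. The Wnt effector Tcf7l2 had log2 fold changes of 0.40 (ENSRNOG00000013993, edgeR adjusted p = 0.619) and 0.24 (ENSRNOG00000049232, 0.671). On the second, the more abundant identifier, the RS3 rats had 400.2, 419.1, 361.4, 270.1 and 369.2 CPM and the RS7 rats 406.5, 431.3, 414.5, 476.4 and 413.8 CPM, so that the groups overlapped. Rora, a nuclear receptor of relay neurons, had 14.2 ± 3.49 and 20 ± 2.33 CPM (0.49), and Cdh8, a cadherin, 94.6 ± 7.18 and 104.1 ± 6.29 CPM (0.14). Leaving out RS3 rat 11 gave 1 marker with an unadjusted p under 0.05 and a median of 0.13, leaving out RS3 rat 9 gave 7 such markers, and all 24 rats gave 5. The part of thalamic tissue in the differences described here was not tested.

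Among genes of GABA synthesis and vesicle loading, 3 of 5 had an identifier, all with lower means in the RS7 group (median log2 fold change -0.19) and 0 with an unadjusted p under 0.05. Gad1 (ENSRNOG00000000007), which makes GABA throughout the neuron, had 203.7, 159.4, 196.5, 212.5 and 210.9 CPM in RS3 rats 7, 9, 10, 11 and 12 and 191.9, 146.3, 166.0, 165.9 and 158.1 CPM in RS7 rats 2 to 6. RS3 rat 9 alone lay within the RS7 range. Gad1 had a log2 fold change of -0.25 (95% confidence interval -0.52 to 0.03, edgeR adjusted p = 0.674, exact permutation p = 0.0476). Slc32a1, the vesicular GABA transporter, had 79.7 ± 13.8 and 69.9 ± 10.3 CPM (-0.19, interval -0.47 to 0.09). Gad2, the synaptic form of the enzyme, had 332 ± 49 and 316.2 ± 43.5 CPM (-0.07, interval -0.37 to 0.23). In the fits without RS3 rat 9 or RS7 rat 2, by limma-voom, with all 24 rats or with the RS3 and RS7 rats alone, 1 of the 3 had an unadjusted p under 0.05.

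The 5 GABA receptor subunits with an identifier all had higher means in the RS7 group, with a median log2 fold change of 0.20. Gabrb1 (0.27) and the GABA B receptor subunit Gabbr2 (0.21) had an unadjusted p under 0.05, with edgeR adjusted p values of 0.662 and 0.661. Gabrb2 (ENSRNOG00000003680), a beta subunit of the GABA A receptor, had 101.9, 140.2, 121.8, 93.8 and 132.0 CPM in the RS3 and 124.5, 140.4, 113.6, 153.6 and 146.5 CPM in the RS7 rats. The groups overlapped widely, and the log2 fold change of 0.20 had a 95% confidence interval from -0.06 to 0.46. The extrasynaptic subunit Gabrd (0.11) differed between the groups by less than the SD of the RS3 group. The count of 2 such subunits became 4 without RS3 rat 9, 0 without RS3 rat 10 or 11, and 1 without RS3 rat 7 or 12 or RS7 rat 3, 4, 5 or 6.

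Of the 9 genes of glutamate receptors and vesicle loading with an identifier, 8 had a higher mean in the RS7 group and 1 a lower one. The median log2 fold change was 0.23, and 5, all higher, had an unadjusted p under 0.05. Grin2a (ENSRNOG00000033942), an NMDA receptor subunit, had 19.4, 32.3, 22.2, 18.9 and 27.1 CPM in RS3 rats 7, 9, 10, 11 and 12 and 32.2, 35.9, 31.7, 32.2 and 36.2 CPM in RS7 rats 2 to 6. RS3 rat 9 alone reached the RS7 range. The log2 fold change of 0.47 had a standard error of 0.147 (edgeR adjusted p = 0.619, exact permutation p = 0.0317), and the C and AS groups had 20 ± 4.13 and 16.7 ± 3.34 CPM. Grm4, a presynaptic metabotropic receptor, had a log2 fold change of 0.23, and the scaffold gene Homer2 (0.25) and Frrs1l (0.28) were also among the 5. Grin2b (0.22), Cnih3 (0.20) and Slc17a6 (0.11) had an unadjusted p above 0.05, and Shisa7 (-0.12) was the member with a lower mean. The count of 5 became 3 without RS3 rat 10, 11 or 12 or RS7 rat 4 or 5. Summed over the list, RS3 rat 11 had the lowest level (892.4 CPM) and RS7 rat 5 the highest (1361.9 CPM).

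Camk4 (ENSRNOG00000020478), a calcium-dependent kinase of the nucleus, had 14.7, 22.3, 15.4, 16.3 and 16.2 CPM in the RS3 and 18.2, 20.8, 21.2, 24.4 and 23.2 CPM in the RS7 rats. RS3 rat 9 was again within the RS7 range. This made a log2 fold change of 0.33 (95% confidence interval 0.10 to 0.57, edgeR adjusted p = 0.619). Camk4, Gabrb2, Grin2a, Gad1 and Slc32a1 were also measured by in situ hybridization in the study, and those data were not analysed here. Of these 5 genes in the counts, 3 had a higher mean with 7 exposures and 2 a lower one, and 2 had an unadjusted p under 0.05 (4 without RS3 rat 9). The study had picked the same 3 as higher and the same 2 as lower in RS7 than in C rats. That choice used the RS7 rats compared here, so the directions were partly set by it. The median log2 fold change of 0.20 mixes both directions.

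Potassium channel genes had a median log2 fold change of 0.16 over 15 genes, of which 13 had a higher mean in the RS7 group. An unadjusted p under 0.05 was found for 5, namely Kcnh5, Kcnh7, Kcnq3 and Kcnj6, which were higher, and Kcng1, which was lower. Kcnh5 (ENSRNOG00000009542), a voltage-gated channel of the ether-a-go-go family, had 5.51, 9.74, 6.65, 5.18 and 8.05 CPM in RS3 rats 7, 9, 10, 11 and 12 and 8.01, 13, 9.18, 12 and 12.1 CPM in RS7 rats 2 to 6. RS3 rats 9 and 12 overlapped RS7 rats 2 and 4. Kcnh5 had a log2 fold change of 0.60 (95% confidence interval 0.25 to 0.95, edgeR adjusted p = 0.619), beside 0.46 for RS3 minus C, not called by edgeR, and 1.06 for RS7 minus C (edgeR adjusted p = 0.0181). Kcnh7, of the same family, had 4.61 ± 0.861 and 6.5 ± 1.15 CPM (0.48), and Kcnq3, a subunit of the muscarine-sensitive M channel, 33.1 ± 5.76 and 42.4 ± 5.46 CPM (0.35). Kcnj6, which G proteins open, had a log2 fold change of 0.25. Kcng1, a silent subunit that modifies other channels, had 2.53 ± 0.518 and 1.61 ± 0.346 CPM (-0.64, edgeR adjusted p = 0.619). Kcnj4, the other gene with a lower mean, had a wide interval (-0.48, -1.35 to 0.40). The count of 5 became 3 without RS3 rat 11 or RS7 rat 3, 8 without RS7 rat 2 and 9 without RS3 rat 9.

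Sodium, calcium and cation channel genes were mixed, with 7 of 13 higher in the RS7 group, 6 lower, and a median log2 fold change of 0.08. Cacnb4, a calcium channel subunit, had the largest positive value (0.24, interval -0.01 to 0.48). The sodium channel Scn8a of the axon initial segment was higher (186 ± 17.5 and 212.7 ± 11.4 CPM, 0.19), and Cacna1i and Hcn3 were lower, each with an unadjusted p under 0.05 and an edgeR adjusted p of 0.619 to 0.621. Hcn3 (ENSRNOG00000020444), a pacemaker channel, had 18, 14.9, 17.6, 17.8 and 16.8 CPM in the RS3 and 13.5, 14.2, 13.1, 13.7 and 15.2 CPM in the RS7 rats. RS3 rat 9 lay just below RS7 rat 6, and the log2 fold change was -0.29 (standard error 0.0748). Cacna1i, a low-threshold calcium channel, had 40.3 ± 4.57 and 34.7 ± 2.04 CPM (-0.22). Without RS3 rat 9, 7 genes of the list had an unadjusted p under 0.05 in place of 4.

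In calcium, kinase and lipid signaling, 24 of 25 genes had an identifier. In 20 of them the RS7 mean was the higher one and in 4 the lower one, and the median log2 fold change was 0.15. Of the 10 with an unadjusted p under 0.05, 7 were higher, among them Plcd4 and Camk4, described above, Dgkh, Plcb4, Camk1d and Rcan2. Dgkh, a kinase that clears diacylglycerol, had 1.84, 2.73, 2.32, 2.12 and 2.09 CPM in the RS3 and 2.37, 3.38, 3.41, 2.59 and 5 CPM in the RS7 rats (0.56, standard error 0.223, edgeR adjusted p = 0.631). RS7 rat 6 stood above the rest, and RS7 rats 2 and 5 lay below RS3 rat 9. The log2 fold changes of Plcb4, Camk1d and the calcineurin inhibitor Rcan2 were 0.23, 0.21 and 0.10. The 3 lower genes were the phospholipases Pla2g4b (-0.35) and Pla2g2c (-0.29) and the diacylglycerol kinase Dgkq (-0.12). Gucy1a1, a subunit of the nitric oxide receptor that was called lower in RS7 minus C (-0.53, edgeR adjusted p = 0.0441), had 30.7 ± 3.03 CPM in the RS3 and 28.3 ± 2.02 CPM in the RS7 group (-0.12, interval -0.33 to 0.10). Leaving out RS3 rat 9 gave 16 in place of 10, RS3 rat 7 gave 6, and RS7 rat 5 or 6 gave 5.

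In the Wnt pathway, whose receptors act on target genes through beta-catenin and the Tcf and Lef factors, 17 of 18 identifiers had a positive log2 fold change, with a median of 0.14. The 5 with an unadjusted p under 0.05 were the receptors Fzd3 (0.31) and Fzd10 (0.21), 1 identifier of Tcf7l2, and 2 inner members of the pathway, Apc (0.21) and Dixdc1 (0.12). Fzd3 had 17.5, 23.2, 20.4, 14.4 and 21.4 CPM in the RS3 and 23.5, 27.6, 21.1, 22.3 and 26.8 CPM in the RS7 rats (edgeR adjusted p = 0.658), and RS3 rats 9 and 12 overlapped RS7 rats 4 and 5. The ligands Wnt2b (0.18), Wnt3 (0.16), Wnt4 (0.08) and Wnt9b (0.18) had intervals that included 0. Fzd5, called in RS7 minus C, had 4.7 ± 0.743 CPM in the RS3 and 4.92 ± 0.348 CPM in the RS7 group (0.05, interval -0.30 to 0.41). Dvl2 (-0.11) was the 1 member with a lower mean. The count of 5 became 3 without RS3 rat 7 and 8 without RS3 rat 9. Tcf7l2 and Lef1 are also markers of the thalamus.

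Genes of synaptic vesicles and release had a median log2 fold change of 0.13, with 15 of 18 higher in the RS7 group. Of the 6 with an unadjusted p under 0.05, all higher, Pclo, Rab3c, Stxbp5l, Erc2 and Napb are named here. Rab3c, a GTPase of synaptic vesicles, had 117.3, 146.9, 134.1, 99.2 and 133.4 CPM in RS3 rats 7, 9, 10, 11 and 12 and 138.9, 173.3, 174.7, 159.3 and 157.4 CPM in RS7 rats 2 to 6 (0.35, standard error 0.111, edgeR adjusted p = 0.619). RS3 rat 9 exceeded RS7 rat 2, and RS3 rat 11 was lowest. Napb, which recycles the fusion complex, had 110.4 to 126.7 CPM in the RS3 and 128.2 to 135.4 CPM in the RS7 rats (0.15). Syt6 (-0.26), Cadps2 (-0.18) and Syt15 (-0.15) had lower means. With all 24 rats, or without RS3 rat 11, 3 genes in place of 6 had an unadjusted p under 0.05.

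Axon guidance and adhesion genes numbered 22. In the RS7 group 14 of them had a higher and 8 a lower mean, and the median log2 fold change was 0.13. Of the 11 with an unadjusted p under 0.05, 10 were higher, with log2 fold changes from 0.11 (Cntn1) to 0.38 (Sema3d). They included the cadherins Cdh6 and Cdh8, the protocadherins Pcdh9 (0.23) and Pcdh10 (0.13), the contactin Cntn4 (0.20), the Slit receptor Robo1 (0.19), the teneurin Tenm3 (0.16) and Thy1 (0.14). Pcdh9 had 97.2, 136.1, 122.4, 121.8 and 126.1 CPM in the RS3 and 123.1, 149.1, 146.0, 146.1 and 146.5 CPM in the RS7 rats (edgeR adjusted p = 0.619). Its groups overlapped through RS7 rat 2, and RS3 rat 7 was lowest. Sema6c (-0.21) was the lower one, while Slit2 (-0.31) and the semaphorin receptor Nrp2 (-0.31) had the most negative values with intervals that included 0. Leaving out RS3 rat 11 gave 4 in place of 11, RS3 rat 7 gave 5, RS7 rat 5 gave 6 and RS3 rat 9 gave 17.

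Neurofilament and cytoskeleton genes had small differences, with 18 of 19 higher in the RS7 group, log2 fold changes from -0.13 (Msn) to 0.20 and a median of 0.13, close to the 0.10 of the 758 genes with a symbol. An unadjusted p under 0.05 was found for 11. Stmn4 (ENSRNOG00000053334), a regulator of microtubules, had 288.8, 298.3, 257.3, 253.5 and 274.2 CPM in the RS3 and 291.2, 312.8, 335.4, 334.7 and 306.8 CPM in the RS7 rats (0.20, standard error 0.0578, edgeR adjusted p = 0.619). RS3 rat 9 overlapped RS7 rat 2. Clasp1, which holds growing microtubule ends, had 160.9 to 185.1 CPM in the RS3 and 186.3 to 199.0 CPM in the RS7 rats (0.13). The neurofilament subunit Nefm (0.20), the spectrin Sptbn1 (0.15), the ankyrin Ank2 (0.15), Epb41 (0.16), Epb41l3 (0.13), Macf1 (0.10), the myosin Myh10 (0.12), Fmn2 (0.14) and Camsap2 (0.10) complete the 11. This count depended on which rats were used. It was 1 with all 24 rats, 3 without RS3 rat 11, 4 without RS7 rat 4 and 7 without RS3 rat 7, 10 or 12.

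Neuronal transcription regulators, a list that also holds 2 RNA-binding proteins, showed 16 of 17 genes higher in the RS7 group. The median log2 fold change of 0.13 was close to the 0.10 of the 758 genes with a symbol. Rora, Hlf, Mef2a and Zbtb18 had an unadjusted p under 0.05. Hlf, a clock-related bZIP factor, had 44, 50.9, 47.3, 37.6 and 42.6 CPM in the RS3 and 51, 52, 58, 60.4 and 50 CPM in the RS7 rats (0.28, edgeR adjusted p = 0.619), with an overlap of RS3 rat 9 and RS7 rat 6. Mef2a, an activity-regulated factor, had 152 ± 19.5 and 178.7 ± 15.4 CPM (0.23), and Zbtb18, a zinc finger repressor, a log2 fold change of 0.17. Foxp2 (ENSRNOG00000054508), called in RS7 minus C with 0.62 (edgeR adjusted p = 0.0181) and beside 0.41 in RS3 minus C (not called by edgeR in this fit), had 62.7, 77.7, 76.7, 66.3 and 70.2 CPM in the RS3 and 72.8, 89.2, 79.8, 85.8 and 83.3 CPM in the RS7 rats. Only RS7 rat 2 was within the RS3 range, and the log2 fold change was 0.21 (95% confidence interval -0.00 to 0.43, edgeR adjusted p = 0.667). Zfpm2 (-0.22) had a lower mean. The count of 4 became 2 without RS3 rat 11, 10 without RS3 rat 9 and 7 with the RS3 and RS7 rats alone. The list of genes shared by the repeated noise groups has 17 members, among them Foxp2, Gad2, Gucy1a1 and Wnt4. Of these, 12 had a higher and 5 a lower mean with 7 than with 3 exposures, the median log2 fold change was 0.03, and 0 had an unadjusted p under 0.05 (1 by DESeq2, by limma-voom, with all 24 rats, with the RS3 and RS7 rats alone, or without RS3 rat 9 or 10 or RS7 rat 2). The study reported these genes as differing from the C group in both RS3 and RS7 rats. A small difference between RS3 and RS7 was thus partly set by the choice. The median also mixes directions, as Foxp2 was higher and Gucy1a1 lower in RS7 minus C.

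The list of neuropeptides and peptide receptors also holds a serotonin and a cannabinoid receptor. Of its 19 genes with an identifier, 13 had a lower mean in the RS7 group, and the median log2 fold change was -0.42. Oprm1 was higher, and Nppa, Calcr, Crhr2 and Kiss1r were lower, with an unadjusted p under 0.05. Calcr (ENSRNOG00000010053), the calcitonin receptor, had 40.5, 13.5, 33.1, 33 and 24.9 CPM in RS3 rats 7, 9, 10, 11 and 12 and 17.9, 19.1, 30.1, 6.06 and 11.7 CPM in RS7 rats 2 to 6. The groups overlapped, with RS3 rat 9 low and RS7 rat 4 high for its group, and the log2 fold change was -0.75 (95% confidence interval -1.47 to -0.04, edgeR adjusted p = 0.654). Crhr2, a receptor of the urocortins, had 2.65 ± 0.946 and 1.69 ± 0.462 CPM (-0.62), and Kiss1r, the kisspeptin receptor, 5.21 ± 0.67 and 3.91 ± 0.976 CPM (-0.41). Galanin (Gal, -0.67), proenkephalin (Penk, -0.42), Prlhr (-0.73) and the angiotensin receptor Agtr1a (-0.57) had intervals that included 0, as did cholecystokinin (Cck, 0.26). The count of 5 became 10 without RS3 rat 9, 8 without RS7 rat 4, 3 without RS3 rat 7 or 10 or RS7 rat 6, and 2 without RS3 rat 11 or RS7 rat 5. It was 9 by limma-voom, 8 with all 24 rats and 3 with a minimum count of 50.

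The paraventricular and neurosecretory markers varied most from rat to rat. Of 6 markers, Avp, Oxt, Trh and Sim1 had an identifier and Crh and Otp had none. The vasopressin gene Avp (ENSRNOG00000021229) had 55.9, 0.238, 6.53, 0.17 and 6.77 CPM in the RS3 and 4.18, 0.322, 2.88, 3.79 and 0.0781 CPM in the RS7 rats. RS3 rat 7 was far above all others, and in RS3 rats 9 and 11 and RS7 rats 3 and 6 the gene was near 0. The log2 fold change of -2.39 had a 95% confidence interval from -5.34 to 0.57. Oxytocin (Oxt) followed the same rats, with 36.5 CPM in RS3 rat 7 and 0.0781 CPM in RS7 rat 6 (-1.41, interval -4.23 to 1.41). The summed level of the 4 markers was 145.1, 13.1, 50.1, 16.3 and 56 CPM in the RS3 and 34.6, 12.5, 28.5, 35.9 and 7.66 CPM in the RS7 rats, and Trh had the most counts. All 4 had lower means in the RS7 group, with a median log2 fold change of -1.12, or -0.49 without RS3 rat 7. None had an unadjusted p under 0.05 by edgeR, against 1 by DESeq2, by limma-voom, or without RS3 rat 9 or RS7 rat 4, and 2 with all 24 rats. The part that the amount of neurosecretory tissue had in the lower peptide genes was not tested.

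Hypothalamic and prethalamic transcription factors had a median log2 fold change of -0.15 over 14 of 17 genes, of which 8 had a lower mean in the RS7 group, and 0 had an unadjusted p under 0.05 by edgeR, against 1 by the DESeq2 Wald test and 4 by limma-voom. Isl1, a homeobox factor of hypothalamic neurons, had 11.1, 3.44, 6.89, 3.57 and 7.97 CPM in the RS3 and 5.36, 2.73, 4.78, 5.93 and 1.64 CPM in the RS7 rats (-0.61, interval -1.44 to 0.21), and RS3 rat 7 was highest, as for Avp. Sim1, a factor of paraventricular neurons, had 7.99 ± 2.02 and 5.96 ± 1.78 CPM (-0.42, interval -0.90 to 0.06). Lhx9 had the largest positive value (0.34, interval -0.03 to 0.71). Leaving out RS3 rat 9 gave 4 in place of 0, RS7 rat 4 gave 3, RS3 rat 7 gave 2, and RS3 rat 10 or RS7 rat 2 gave 1.

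Of the astrocyte markers, 3 of 7 had an identifier. The glutamate transporter Slc1a2 had 225.6, 238.2, 229.6, 190.1 and 230.9 CPM in the RS3 and 244.3, 272.5, 261.0, 233.4 and 249.0 CPM in the RS7 rats (0.18, edgeR adjusted p = 0.637), where RS7 rat 5 alone was within the RS3 range. Slc1a3, the other transporter, had 732.3 ± 19.1 and 702.2 ± 36.2 CPM (-0.06), and the water channel Aqp4 875.8 ± 55.9 and 943.2 ± 73.4 CPM (0.11). Their sum was between 1790.4 and 1894.9 CPM in the RS3 and between 1750.7 and 2033.4 CPM in the RS7 rats, with Aqp4 the most abundant. Among the 10 oligodendrocyte and myelin markers, 0 had an identifier. The 4 microglia and immune genes with one were all lower in the RS7 group (median -0.36). Irf1, an interferon-regulated factor, had 6.16, 6, 5.12, 6.2 and 5.07 CPM in the RS3 and 3.97, 5.31, 4.52, 3.53 and 4.45 CPM in the RS7 rats (-0.39, edgeR adjusted p = 0.619), and only RS7 rat 3 was within the RS3 range. Cd24 had 18.3 ± 5.47 and 13.3 ± 2.23 CPM (-0.44, edgeR adjusted p = 0.634) with the highest value, 27.1 CPM, in RS3 rat 7. The defining microglial markers Cx3cr1, Aif1, Csf1r, P2ry12, Tmem119, Itgam and C1qa had no symbol in the study's list. They could not be looked up in the counts, so the level of microglia was not assessed. The astrocyte count of 1 with an unadjusted p under 0.05 (Slc1a2) became 0 without RS3 rat 11 or RS7 rat 3 or 4 and with all 24 rats. The immune count of 2 (Irf1 and Cd24) became 1 without RS3 rat 7 or 11 or RS7 rat 5 or 6 and with all 24 rats.

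Of the 7 vascular and basement membrane genes with an identifier, 5 had a higher mean in the RS7 group. Lamb1, a laminin chain (0.21), and Heg1, an endothelial receptor (0.18), had an unadjusted p under 0.05, and the median log2 fold change was 0.04. Lama3, another laminin chain, had the lowest value (-0.25, interval -0.57 to 0.07). The 6 ependymal and ciliary genes with an identifier were all lower in the RS7 group (median -0.21), and Cfap300 had an unadjusted p under 0.05. Their sum was 35.3, 24.3, 31.5, 31 and 30.9 CPM in RS3 rats 7, 9, 10, 11 and 12 and 29.9, 25.8, 32.3, 18 and 21.3 CPM in RS7 rats 2 to 6, with Rsph10b the most abundant. RS7 rats 5 and 6 were lowest and the other rats overlapped. Ttr and Foxj1 had no identifier, and the part of ventricular lining in these values was not tested. The vascular count of 2 became 0 without RS3 rat 11 or 12 or RS7 rat 5, and 1 without RS3 rat 7 or 10 or RS7 rat 3. The ciliary count of 1 became 2 without RS3 rat 7 or RS7 rat 2, by limma-voom or with all 24 rats, and 0 without RS7 rat 5.

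Most genes that respond to acute activity (7 of 9) or to glucocorticoids (6 of 8) had no identifier. The immediate-early gene Arc had 5.4, 4.99, 4.51, 4.84 and 3.95 CPM in the RS3 and 4.32, 3.7, 3.67, 5.99 and 3.67 CPM in the RS7 rats (-0.13, interval -0.50 to 0.23), and the groups overlapped. Plk2, an activity-induced kinase, had a log2 fold change of -0.07. The glucocorticoid-responsive genes Klf9 (95.8 ± 7.98 and 102.2 ± 8.64 CPM, 0.09) and Cdkn1a (15.8 ± 2.49 and 18.7 ± 2.16 CPM, 0.24) were higher, the latter with an unadjusted p under 0.05 (edgeR adjusted p = 0.645). Of these, 0 had one without RS3 rat 7, 10 or 11 or RS7 rat 4 or 5, by limma-voom or with all 24 rats, and 2 without RS3 rat 9. The median log2 fold change was 0.17 for the glucocorticoid-responsive and -0.10 for the immediate-early genes. Of 7 heat shock and chaperone genes, Hspb8 and Hspa1a had an unadjusted p under 0.05, both lower, while Hspa12a (0.18) and 3 others had higher means, with a median log2 fold change of 0.09. Hspa1a, the inducible chaperone of the 70-kDa family, had 4, 3.33, 3.9, 3.06 and 3.46 CPM in the RS3 and 3.06, 2.82, 3.21, 1.89 and 2.03 CPM in the RS7 rats (-0.44, edgeR adjusted p = 0.621), with an overlap of RS3 rat 11 and RS7 rats 2 and 4. Without RS7 rat 2 the list had 4 such genes, and with a minimum count of 50 it had 1.

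Respiratory chain and glycolysis genes had a median log2 fold change of -0.00 over 8 of 12 genes, 3 with a higher and 5 with a lower mean in the RS7 group. The glycolytic enzymes Pgk1 and Pkm had values of -0.00 each, and the respiratory subunit Cox7b one of 0.21 (19.7 ± 2 and 22.7 ± 2.79 CPM, edgeR adjusted p = 0.661). Cox7b was among the 2 genes with an unadjusted p under 0.05, and without RS3 rat 11 or 12 or RS7 rat 5 or 6 there was 1. The mitochondrially encoded genes of the list had no symbol in the study's list, so they could not be looked up in the counts.

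**Figure D3:**
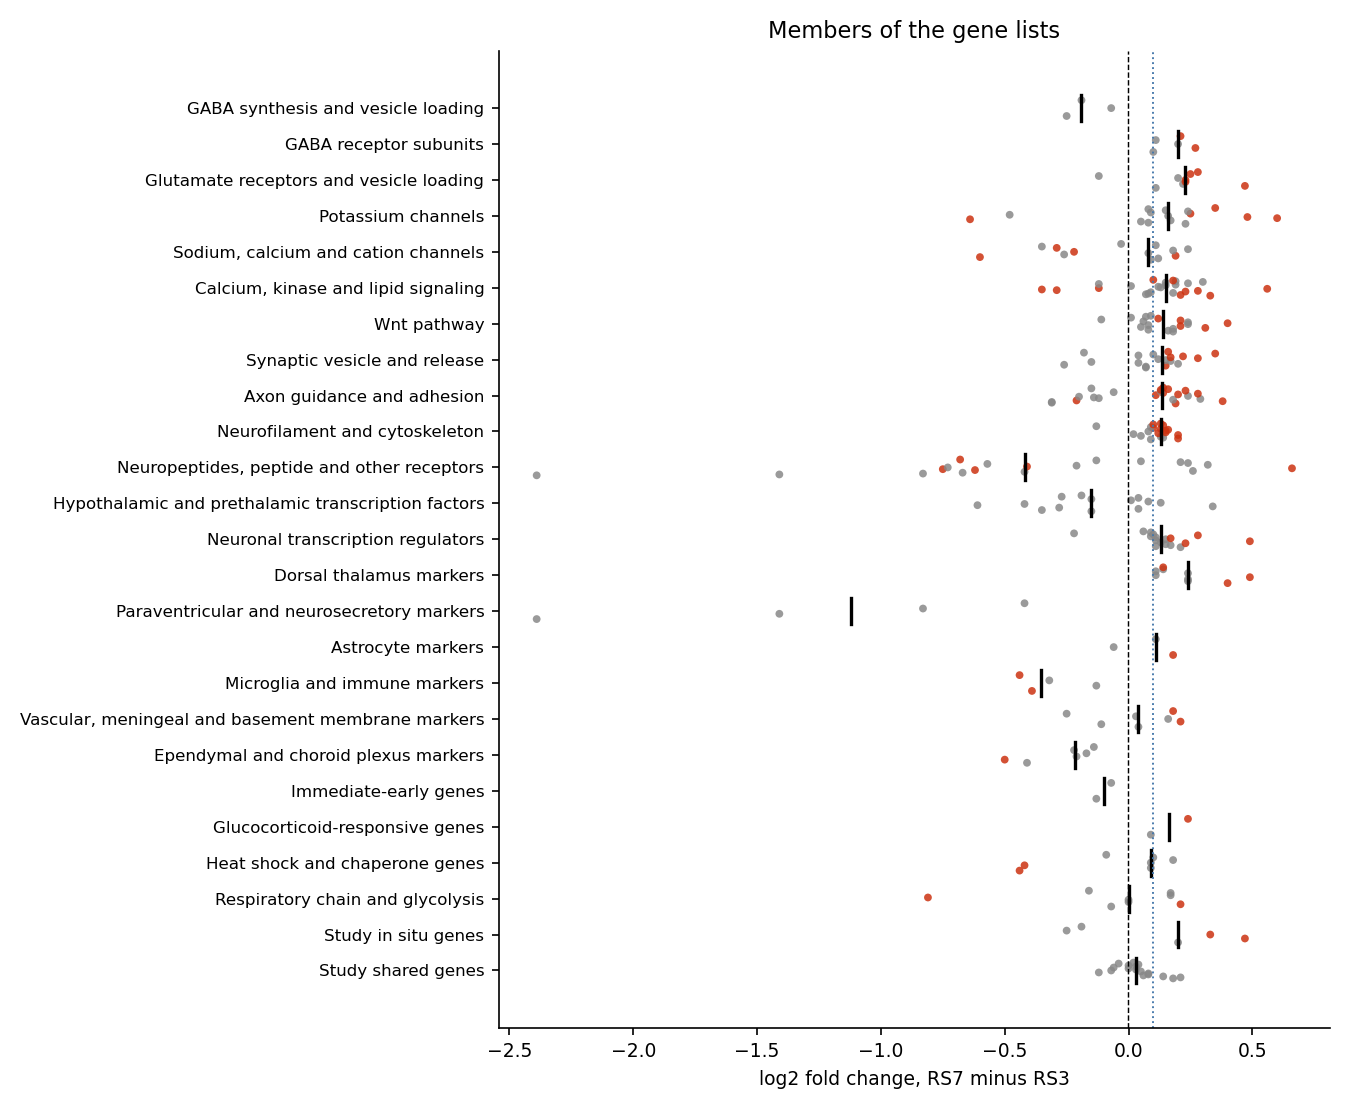
Log2 fold change (RS7 minus RS3, horizontal axis) of the members of 25 gene lists, with the list median as a black bar the median of all genes tested as a dashed line and that of the genes with a symbol as a dotted blue line. Red points have an unadjusted edgeR p under 0.05 and grey points do not, and list medians lie between -1.12 (paraventricular and neurosecretory markers) and 0.24 (dorsal thalamus markers).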

How the data were processed

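The deposited table holds, per the labels and the paper, counts per Ensembl gene that the authors made with Trimmomatic 0.36, HISAT2 2.0.5 (rn6) and featureCounts from paired-end poly(A) libraries, and they are not normalized. Strandedness, the treatment of multimapping reads and whether single reads or pairs were counted are not given in the sources used here. The table lists 32883 identifiers, of which 7066 had a count of 0 in all 24 rats.

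The rats kept by the study were found by recomputing its mean of normalized counts over each of the 1296 ways of dropping 1 rat from every group. For 808 identifiers a single way matched (relative tolerance 1e-07), and the next best matched for 0. The rats dropped were RS7 rat 1, RS3 rat 8, AS rat 18 and C rat 20. Symbols came from the study's table of differentially expressed genes, and 758 tested identifiers had one, with 3 symbols on 2 identifiers each.

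Counts were analysed in R 4.3.3 with edgeR 4.0.16 (filterByExpr with a minimum count of 10, TMM factors, robust quasi-likelihood fit of 4 groups, 20 rats) and Benjamini-Hochberg adjustment over 16202 genes. DESeq2 1.42.0 and limma 3.58.1 were the other tools, and all 3 were checked on simulated data. Exact permutation p values compare mean log2 CPM over all 252 splits of the 10 rats.

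Genes were named when they were the 12 largest differences each way among genes with a symbol, an unadjusted p under 0.05 and no overlap between groups, the 5 lowest p values each way with at most 2 identifiers without a symbol, an in situ gene, or a list member with an unadjusted p under 0.05 or the largest or smallest value of its list. Other list members named were chosen after their values were seen, and some members that the rule or this choice would name are not reported here. The 26 lists cover GABA synthesis, GABA receptors, glutamate, potassium channels, sodium, calcium and cation channels, calcium, kinase and lipid signaling, Wnt, synaptic vesicles, axon guidance, cytoskeleton, neuropeptides, peptide and other receptors, hypothalamic and neuronal transcription factors, markers of dorsal thalamus, neurosecretory cells, astrocytes, oligodendrocytes, microglia, vessels and ependyma, immediate-early, glucocorticoid-responsive, heat shock and metabolic genes, the in situ genes and the genes shared by the repeated noise groups. The members and lists were chosen with earlier results of these data known. Alternatives were DESeq2 with independent filtering at 0.05 or 0.1, limma-voom, DESeq2 size factors, no filter, a minimum count of 50, all 24 rats, the RS3 and RS7 rats alone, and leaving out each of the 10 rats in turn.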

Additional observations from a re-analysis of the deposited data

Results flagged for a closer look

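Values were flagged where 1 rat lay far from the other 4 of its group (Dixon ratio above 0.71), in the genes named and 3 library measures. This flagged 23 of 292 groups of rats (7.88%). Chance alone flags about 1 group in 20 where values are independent and normally distributed. The genes here share the same rats and were mostly chosen by their values in them, so no excess is read from the 7.88%.

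RS3 rat 11 was below the other RS3 rats in Apc (272.1 CPM, others 318.9 to 327.9), Clasp1 (160.9, others 178.6 to 185.1), Slc17a6 (562.1, others 712.5 to 758.8), Slc1a2 (190.1, others 225.6 to 238.2) and Wnt4 (31.6, others 43.1 to 46.8), and above them in Zfp383 (16.1, others 13.7 to 14.4). RS3 rat 9 was above its group in Camk4 (22.3, others 14.7 to 16.3), Cnih3 (6.59, others 3.9 to 4.67), Epb41l3 (402.7, others 345.9 to 360.3) and Tenm3 (142.9, others 108.9 to 118.2). RS3 rat 7 was above its group in Avp (55.9, others 0.17 to 6.77) and Prlhr (2.7, others 0.793 to 1.13).

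RS7 rat 5 was above the other RS7 rats in Arc (5.99 CPM, others 3.67 to 4.32), Lhx9 (16.4, others 11.1 to 12) and Plcb4 (434.5, others 338.5 to 361.4), and below them in Cfap300 (2.84, others 4.53 to 4.99), Nppa (1.32, others 1.74 to 1.9) and Wscd2 (3.09, others 4.67 to 5.15). RS7 rat 2 was below its group in Pcdh9 (123.1, others 146.0 to 149.1) and Zbtb18 (37.6, others 42.4 to 43.7), RS7 rat 3 in Pkm (223.9, others 234.6 to 239.0), and RS7 rat 6 was above it in Kcnh7 (8.52, others 5.64 to 6.19). The 10 most abundant genes took 18.8% of the counts of RS7 rat 4 (others 13.1% to 14%). What set these rats apart was not tested.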

How the results depend on the processing

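In all 18 alternatives 0 genes were called, with a lowest adjusted p of 0.211 over the alternatives and tools (edgeR, DESeq2 and limma-voom). The 118 genes that meet the naming rule kept the direction of their log2 fold change in all 2113 values under alternatives. The count of 1218 genes with an unadjusted p under 0.05 became 655 with all 24 rats (315 with higher and 340 with lower RS7 means), and the cause was not tested. With other settings it was 1286 (DESeq2), 1432 (limma-voom), 1234 (DESeq2 size factors), 1623 (no filter), 1028 (minimum count of 50) and 1249 (RS3 and RS7 rats alone), and with single rats left out it ranged from 854 (RS3 rat 11) to 1634 (RS3 rat 9). No paired analysis was possible because rat numbers are unique and the groups share no replicate number.

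With 5 rats per group, a two-sided exact permutation p cannot be below 0.00794. In a gene with the median half-width of 0.19, a smaller log2 difference could not be told from 0 by its own unadjusted 95% interval. To be called across all genes, such a gene would need a larger difference. The interval lay within a 2-fold change for 99.7% of genes above 10 CPM and 96.5% of all, and the part of depth in this was not tested. Only genes with a symbol from the study's table could be named, so most genes with an unadjusted p under 0.05 stay without a name. The counts hold no measure of cell numbers or of the dissection.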

Other observations

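The rats that the study left out stood apart in their libraries. The 10 most abundant genes took 33.8% of 14299345 counts in RS7 rat 1 and 24.9% of 9546391 counts in RS3 rat 8. With TMM factors from all 24 rats, RS7 rat 1 and RS3 rat 8 had 32 and 19.9 CPM of Oprm1, 33.6 and 25.5 CPM of Hdac9, 79.8 and 89.9 CPM of Plcd4, 31 and 27.4 CPM of Asxl2, 280.4 and 217.0 CPM of Pclo, 1.05 and 1.66 CPM of Lbhd2, 2.67 and 2.85 CPM of Nppa, 1.34 and 1.54 CPM of Btc, and 8.49 and 11.5 CPM of Hspb8. RS7 rat 1 was the higher of the pair in Oprm1, Hdac9, Asxl2 and Pclo and the lower in Plcd4, Lbhd2, Nppa, Btc and Hspb8. In Plcd4 this was opposite to the kept rats. RS3 rat 8 lay above the mean of the kept RS7 rats in Plcd4, Asxl2 and Pclo, and within their range in Btc and Hspb8. RS7 rat 1 lay within the range of the kept RS3 rats in Nppa. In Oprm1, Hdac9 and Lbhd2 the pair added no overlap, though the TMM factors differ from those of the kept rats. RS3 rat 8 had 37.2 CPM of Avp and RS7 rat 1 had 0.572 CPM.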
